A study of Mus musculus with 12 samples.

Results

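Many hairpins in the mouse genome give rise to 2 small RNA strands, and the data here concern the strand that older naming marks with a star. The members were chosen by name from the panel's assay list. They are all microRNA (miRNA) assays whose name ends in the star sign (#), apart from those of hairpin miR-199b, and the rule uses no measured value, although it was drawn up with earlier results of these data known. This gave 121 of the 750 miRNA assays. The other 629 assays, called unstarred here, served for comparison.

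Pancreatic islets were taken from male C57BL/6 mice of 2 to 3 months, the offspring of dams whose food in pregnancy was low in protein (the LP0.5 group, 6 samples) or a control food (the Control group, 6 samples). All islets were hand-picked after collagenase digestion and kept overnight in culture before RNA was extracted, and small RNAs were measured by TaqMan real-time PCR with a FAM probe. The offspring themselves are described only by the diet of the mother, and the question was which miRNAs differ in their islets as adults.

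The enzyme Dicer cuts a miRNA hairpin into a short duplex made of its 5p and its 3p arm. As a rule one strand, the guide, is kept by an Argonaute protein and pairs with messenger RNAs through its seed, while the other strand is mostly degraded. The star was given to the strand found less often in early cloning work. Argonaute favours the strand whose 5′ end is loosely paired and which begins with U. Both strands come from 1 transcript, so a change in transcription acts on both, whereas a change in strand choice or strand stability can move one without the other. Some starred strands are guides in their own right, such as miR-9# in neurons and miR-126# in endothelium.

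Printed here are the matched strands whose ratio lay beyond 4-fold from 1 (10 of 11, with miR-138# named only), and their relatives in the let-7, miR-10, miR-376 and miR-99 groups, because close relatives among them had unlike ratios. The sequences are RefSeq mature mouse strands of build GRCm38.p6, written 5′ to 3′, with the seed (bases 2 to 8) in capitals. A # name was assigned to an arm from the older naming. The primer sequences of the assays were not used here, and an assay named for human or rat may differ from the mouse strand.
let-7a-1-3p: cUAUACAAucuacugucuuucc, chr13:48538188-48538209, minus strand
let-7b-3p: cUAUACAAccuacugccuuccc, chr15:85707379-85707400, plus strand
let-7f-1-3p: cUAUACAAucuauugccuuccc, chr13:48537833-48537854, minus strand
let-7c-1-3p: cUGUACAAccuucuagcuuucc, chr16:77599717-77599738, plus strand
let-7d-3p: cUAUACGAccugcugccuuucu, chr13:48536024-48536045, minus strand
let-7e-3p: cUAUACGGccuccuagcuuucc, chr17:17830411-17830432, plus strand
let-7g-3p: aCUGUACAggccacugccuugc, chr9:106178902-106178923, plus strand
let-7i-3p: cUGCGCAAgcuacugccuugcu, chr10:122985642-122985663, minus strand
miR-10a-3p: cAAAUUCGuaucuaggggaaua, chr11:96317227-96317248, plus strand
miR-10b-3p: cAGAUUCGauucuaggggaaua, chr2:74726114-74726135, plus strand
miR-376a-5p: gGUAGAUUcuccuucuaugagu, chr12:109723786-109723807, plus strand
miR-376b-5p: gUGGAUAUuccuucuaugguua, chr12:109723471-109723492, plus strand
miR-376c-5p: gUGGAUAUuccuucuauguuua, chr12:109722733-109722754, plus strand
miR-99a-3p: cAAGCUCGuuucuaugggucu, chr16:77598977-77598997, plus strand
miR-99b-3p: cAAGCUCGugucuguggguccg, chr17:17830232-17830253, plus strand
miR-218-1-3p: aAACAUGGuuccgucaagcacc, chr5:48224005-48224026, plus strand
miR-218-2-3p: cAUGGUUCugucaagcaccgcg, chr11:35616882-35616903, plus strand
miR-881-5p: cAGAGAGAuaacagucacaucu, chrX:66801986-66802007, minus strand
miR-30c-1-3p: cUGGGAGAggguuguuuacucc, chr4:120769546-120769567, minus strand
miR-191-3p: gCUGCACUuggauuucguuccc, chr9:108568367-108568388, plus strand
miR-15b-3p: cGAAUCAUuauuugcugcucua, chr3:69009813-69009834, plus strand
miR-29b-1-5p: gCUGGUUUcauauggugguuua, chr6:31063067-31063088, minus strand
In all 94 starred assays were matched, to 90 different strands, and the other assays are named only.

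Starred strands differed from their partners in composition. For 86 hairpins RefSeq gave both strands, and 15 of the starred strands (17.4%) began with U against 52 of the partner strands (60.5%). In 44 hairpins the partner alone began with U, in 7 the starred strand alone, and in 8 both did. The starred strands most often began with C (31 of 86, 36.0%), as do the let-7 strands printed above apart from let-7g-3p. The median GC content was 48.9% for the starred strands and 43.5% for their partners, at a median length of 22 bases for both. No starred strand had the seed of its own partner, so within each of these hairpins the strands carry different seeds.

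All values below are ratios from the authors' deposited table, which holds a single linear ratio for each spot under a low-protein against control heading, and no replicate value. No ratio therefore has an error, a replicate check or a p-value here. The 12 columns of per-sample values in a second deposited table have names that match no sample label, so they were used in no step. Threshold cycles, detection and levels were therefore not analysed here, and neither the tissue label nor the abundance of a starred strand was checked. By the heading, a ratio above 1 stands for more of the strand in islets of the LP0.5 group. The study is known for naming miR-199a-3p among the miRNAs raised in low-protein islets, whereas the authors' deposited table lists it at 0.422, so values are given as listed above or below 1. If the ratio runs the other way, every value turns into its inverse, and above and below change places in all that follows. The spot codes divide the panel into 2 sets, A and B. The 8 spots of U6, a small nuclear RNA, average a log2 ratio of 0 in either set.

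A ratio was listed for 95 of the 121 starred assays (78.5%) and for 471 of the 629 unstarred assays (74.9%). Starred assays lay mainly in the B set, 114 of 121. Within the B set 88 of 114 starred assays (77.2%) and 174 of 259 unstarred assays (67.2%) had a ratio. Within the A set all 7 starred assays and 297 of 370 unstarred assays (80.3%) did. The absence of a ratio is not explained in the sources used here and was not taken as absence of the strand.

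The 26 starred assays without a ratio included whole groups. All 6 starred assays of the embryonic stem cell hairpins miR-302a, miR-302b, miR-302c, miR-293, miR-294 and miR-295 were without one, as were both muscle assays, miR-1# and miR-133a#. Among the growth-promoting miR-17-92 cluster with its paralogous clusters, 5 of 11 starred assays had no ratio (miR-25#, miR-92a#, miR-363#, miR-20b# and the rat-named miR-20a#). The others were miR-23a#, miR-30c-2#, miR-124#, miR-145#, miR-146b#, miR-374#, miR-431#, miR-467e#, miR-483#, miR-488#, miR-708#, miR-742# and the mouse-named miR-125b#. For 18 of the 26 the unstarred assay of the same hairpin did have a ratio in the authors' deposited table, for 5 it had none, and the rest had no unstarred assay of that name.

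The starred assays were listed close to 1 in the middle and far from it at the ends. Their median ratio in the authors' deposited table was 1.02, and the quartiles were 0.799 and 1.29. Of the 95, 50 were above 1 and 45 below. Ratios 1.5-fold or more from 1 numbered 37 (38.9%), 21 above and 16 below. Over all 566 miRNA assays with a ratio the share was 35.3%, with 18.6% above and 16.8% below, so the starred share was near this background. Over the B set alone it was 42.7%, with 24.8% above and 17.9% below, against 39.8% of the starred B set assays. At a 2-fold limit the starred count was 21 (22.1%), 11 above and 10 below, against 24.2% of all assays and 30.2% of the B set.

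The reference moved this split. With the mean of the snoRNA135, snoRNA202, U87 and Y1 controls in place of U6, 41 starred ratios were above 1 and 54 below, and 17 and 20 were at least 1.5-fold from 1. Over all 566 miRNA assays 355 were then below 1, with 91 above and 130 below at least 1.5-fold from 1. The share of far starred ratios that lay above 1 went from 56.8% to 45.9%, and to 38.2% (13 above, 21 below) when 1 outlying U87 spot of the B set, at 0.133 in the authors' deposited table, was left out of that reference. Over all miRNA assays this share went from 52.5% to 41.2% and 37.8%. The share of all miRNA assays below 1 was 49.1% as deposited, 62.7% with the other reference and 66.8% without the outlying spot, a common shift against which the counts of each family below have to be read. The median log2 ratio of the starred assays went from 0.03 to -0.09 and -0.18, and that of all miRNA assays from 0.01 to -0.15 and -0.19.

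The spread of the starred ratios followed the assay set. The interquartile range of the log2 ratio was 0.69 for starred and 0.69 for unstarred assays over both sets. In the B set it was 0.82 for starred against 1.02 for unstarred assays, and 23.9% of the starred against 33.3% of the unstarred ratios were at least 2-fold from 1. The 7 starred ratios of the A set ran from 0.502 to 1.08. The plot of log2 ratios by set shows these 4 groups.

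**Figure D1:**
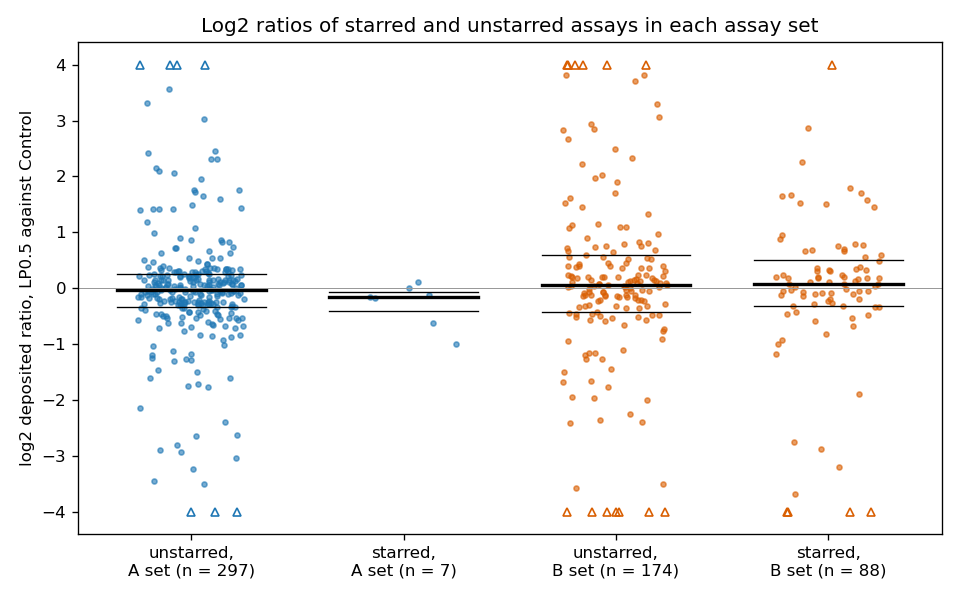
Log2 ratio of each assay in the authors' deposited table (y axis, LP0.5 against Control) for unstarred and starred assays of the A and B sets (x axis). Each point is 1 assay, thick lines are medians, thin lines are quartiles, and open triangles mark ratios beyond the axis. The starred B set assays (n = 88) have an interquartile range of 0.82 against 1.02 for the unstarred ones (n = 174).

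The far ends held 11 starred ratios beyond 4-fold, 3 above 1 and 8 below, all from the B set. That is 11 of 95 starred ratios, beside 71 of 566 over all miRNA assays. In the B set alone it is 11 of 88, beside 43 of 262 over all miRNA assays there. The highest starred ratio in the authors' deposited table was 316 for miR-218-1#, followed by 7.29 for miR-10b# and 4.77 for miR-99a#. The lowest was 0.000210 for miR-881#, a strand of an X-linked cluster expressed in the germ line, followed by 0.00280 for miR-30c-1# and 0.00663 for miR-376c#. A gap separates these 3 from the next values in the authors' deposited table, 0.0378 for miR-191#, 0.0784 for miR-138# and 0.108 for miR-15b#. The last of the 8 were miR-218-2# at 0.136 and miR-29b-1# at 0.149. With the ratio turned, miR-881# would be the highest and miR-218-1# the lowest. Ratios of unstarred assays ran farther, from 0.000109 to 3.63e+07.

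The partners of these strands were mostly near 1. For 10 of the 11 an unstarred assay of the hairpin family had a ratio, and it lay between 0.787 and 1.61 in the authors' deposited table, within 1.5-fold of 1 for 9. The unstarred miR-191 was listed at 0.998, unstarred miR-138 at 1.05 and unstarred miR-30c at 1.07. The exception among the 10 was miR-10b, with 1.19 and 2.18 for its unstarred assays in the authors' deposited table. The strands of the paired hairpin copies miR-218-1 and miR-218-2, printed above, begin 3 bases apart. With that offset they are identical in 18 of 19 bases, while their seeds, counted from each 5′ end, differ. Their starred ratios lay on opposite sides of 1 in the authors' deposited table, 316 and 0.136, beside 0.836 for their common unstarred strand.

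**Figure D2:**
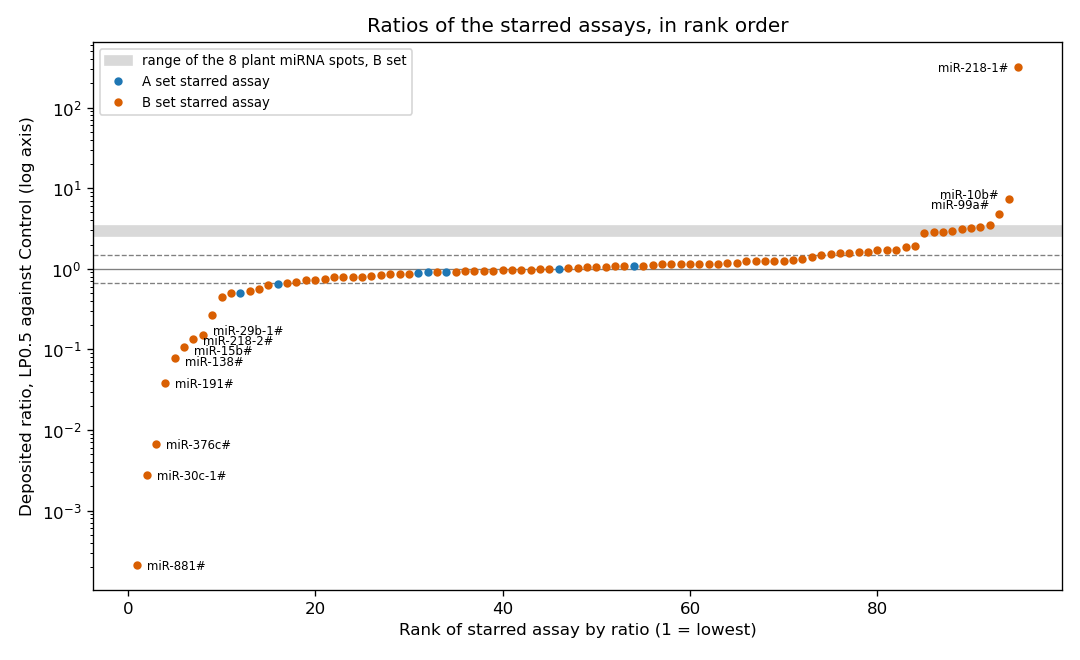
Ratios of the 95 starred assays in the authors' deposited table, in rank order (x axis) on a log axis (y axis). Dashed lines mark 1.5-fold from 1, the grey band is the range of the 8 plant miRNA spots of the B set (2.59 to 3.37), and the 11 named assays lie beyond 4-fold.

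A plant miRNA gives a scale for the upper end. The assay for miR-159a of Arabidopsis has no mouse target, yet its 8 B set spots had ratios from 2.59 to 3.37 in the authors' deposited table, with a median of 3.01. In the A set 2 of its 8 spots had a ratio, 0.139 and 1.96. Of the 88 starred B set ratios 7 (7.95%) lay inside that range, namely those of miR-18a#, let-7i#, miR-712#, miR-135a#, miR-15a#, miR-130b# and the rat-named miR-125b#. Those of miR-101a#, miR-99a#, miR-10b# and miR-218-1# lay above it. Among the unstarred B set ratios 4 of 174 (2.30%) were inside and 21 above. Whether these high starred ratios share a source with the plant assay was not tested.

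The unstarred strand offers a comparison by hairpin name. Some unstarred strands come from more than 1 hairpin copy, such as miR-29b-3p, and the pairing does not separate these copies. An unstarred assay of the same hairpin name was on the panel for 100 starred assays of 96 hairpins, and both strands had a ratio for 75 of them (73 hairpins). Where a hairpin had several unstarred assays, their mean log2 ratio was used. The starred strand had the higher ratio in 47 pairs and the lower in 28, with a median difference of 0.24 on the log2 scale. Over the 15 pairs with an unstarred assay in the same set these counts were 9 and 6. With the ratio turned, the starred strand would be higher in 28 of the 75 pairs and lower in 47, with a median difference of -0.24. The strands lay on the same side of 1 in 38 pairs and on opposite sides in 37.

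The median gap between strands was close to that between unstarred assays of 1 miRNA name. The median gap in the authors' deposited table was 1.45-fold, with quartiles of 1.18 and 2.61, and 24 of 75 pairs were over 2-fold apart. For scale, 36 pairs of unstarred assays of 1 miRNA name were a median of 1.39-fold apart, and 9 of them were over 2-fold apart. These were matched with the species prefix left aside, so they can differ in species and set and are not repeats of 1 assay. Across the 75 pairs, as a description over hairpins, Spearman's rho was 0.010 and Pearson's r 0.035 on the log2 scale. In 60 of the pairs all unstarred assays were in the other set, and rho was -0.09 there, while over the 15 pairs with an unstarred assay in the same set it was 0.31.

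The starred strand was more often the one far from 1. The starred ratio alone was at least 1.5-fold from 1 in 21 pairs, the unstarred alone in 9, both in 6 and neither in 39. The interquartile range of the log2 ratio was 0.65 for the starred and 0.42 for the unstarred assays of these pairs. Most of these starred assays are in the wider B set and most partners in the A set. Over the 15 pairs with an unstarred assay in the same set, the starred ratio alone was far in 3, the unstarred alone in 1, both in 3 and neither in 8, with interquartile ranges of 0.87 and 0.51.

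**Figure D3:**
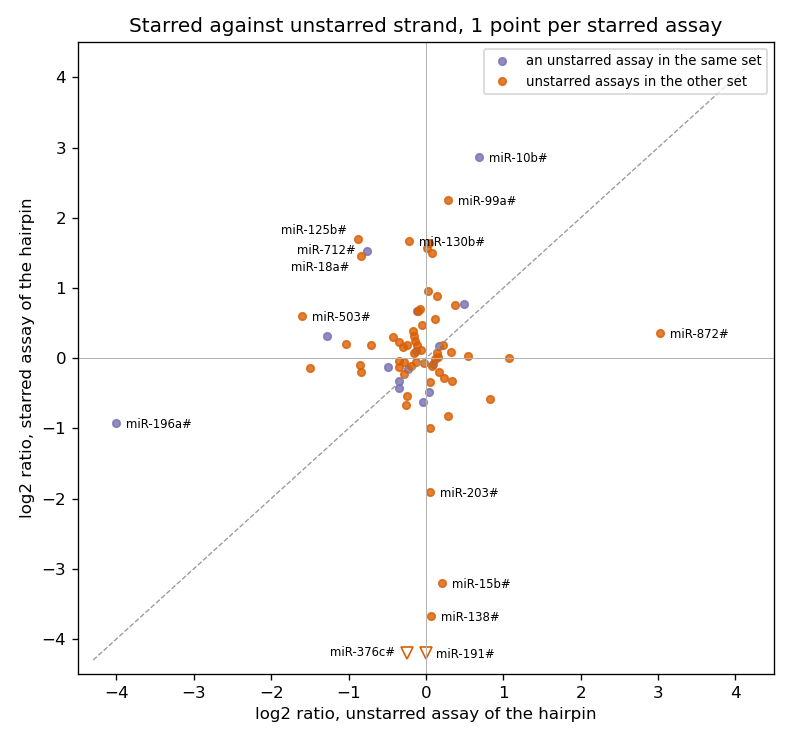
Log2 ratio of the starred assay (y axis) against that of the unstarred assay of the same hairpin (x axis) in the authors' deposited table, 1 point for each of 75 starred assays. The dashed line marks equal ratios, colours show whether an unstarred assay lies in the same set, and open triangles mark starred ratios beyond the axis. In 38 pairs the strands lie on the same side of 1 and in 37 on opposite sides, as deposited.

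Both strands were far from 1 in 6 pairs. Only in miR-10b and miR-196a, which lie in the Hox gene clusters that pattern the body axis, were they on the same side. For miR-10b the unstarred value is the mean of assays at 1.19 and 2.18, and only the latter was itself far. In the authors' deposited table miR-196a# was listed at 0.527 and unstarred miR-196a at 0.0620. On opposite sides there were miR-712, with 2.89 for the starred and 0.588 for the unstarred strand, and miR-125b. The rat-named miR-125b# was at 3.25 and unstarred miR-125b at 0.543. In the authors' deposited table the mouse-named miR-125b# had no ratio, and miR-125b-1# was at 0.885, below 1 and not far from it. Opposite sides were also listed in the authors' deposited table for miR-18a, with 2.76 starred and 0.561 unstarred. The last was miR-503, with 1.52 starred and 0.329 unstarred. In all 4 of these pairs the starred strand was the one above 1. The ratios of miR-712#, the rat-named miR-125b# and miR-18a# lay inside the range of the plant miRNA spots. With either form of the other reference both strands were far from 1 in 5 pairs, 1 of them on the same side.

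The closest pairs differed by a few percent. In the authors' deposited table miR-200c# was listed at 1.13 beside a mean of 1.12 for unstarred miR-200c, and miR-379# at 0.958 beside 0.982. MiR-676# at 1.14 beside 1.17 and the mouse-named miR-136# at 0.795 beside 0.784 were as near, also from the authors' deposited table. Among the 75 pairs of identical hairpin name the widest gaps were of another order, as miR-376c was 126.8-fold apart, miR-191 26.4-fold, miR-138 13.4-fold and miR-15b 10.7-fold, each with the starred strand lower. Here the unstarred strand was the one near 1. Against the unstarred strand shared by the copies of their hairpin, miR-30c-1# was 384-fold lower and miR-218-1# 378-fold higher.

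In a few hairpins it was the unstarred strand that was far from 1. In the authors' deposited table miR-872# was listed at 1.28 beside 8.13, and miR-674# at 0.904 beside 0.353. MiR-322# and miR-503# come from neighbouring hairpins on the X chromosome, a locus whose unstarred strands have seeds like that of miR-15, known for slowing the cell cycle. MiR-322# was listed at 1.24 beside 0.414 for the unstarred strand in the authors' deposited table, the same order as for miR-503. These were named after their values were seen.

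The let-7 family, which restrains growth and stem cell programmes, had starred strands that spread more widely than their partners. All 8 unstarred partners have the single seed GAGGUAG and were listed from 0.840 to 1.32 in the authors' deposited table, a 1.57-fold range. The 8 starred strands have 6 seeds and were listed from 0.442 to 2.84, a 6.41-fold range, with 4 above 1 and 4 below, also with either form of the other reference. The highest in the authors' deposited table were let-7i# at 2.84, let-7g# at 1.93, let-7e# at 1.69 and let-7c-1# at 1.26. The lowest were let-7f-1# at 0.442, let-7b# at 0.799, let-7a# at 0.821 and let-7d# at 0.872, again from the authors' deposited table. The starred strand was the higher in 3 of 8 pairs. As in most hairpins, the starred let-7 assays are in the B set and the partners in the A set.

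Among the starred let-7 strands 3 share a seed. The strands let-7a-1-3p, let-7b-3p and let-7f-1-3p have the seed UAUACAA, and all 3 starred assays were below 1 as deposited. Both forms of the other reference lower every ratio, so these assays could only stay below 1. The seeds of let-7g-3p and let-7i-3p differ from it and from each other. Over all hairpins, the 90 strands carried 80 seeds, of which 71 belonged to a single strand and 9 were shared by 19 strands. Of 6 shared seeds with at least 2 ratios, 5 had all ratios on 1 side of 1. With the snoRNA, U87 and Y1 reference this was 4 of 6, and without the outlying U87 spot 5 of 6. The share of all miRNA assays below 1 was 49.1% as deposited, and 62.7% and 66.8% under these references. Apart from UAUACAA each of the 6 seeds had only 2 ratios, and agreement by seed was not tested.

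Shared sequence did not go with a shared ratio everywhere. MiR-376b-5p and miR-376c-5p, printed above, are identical in 21 of 22 bases and share the seed UGGAUAU. Their starred assays stood at 0.688 and 0.00663 in the authors' deposited table, both below 1 and far apart. MiR-99a-3p and miR-99b-3p share the seed AAGCUCG and 18 of 21 bases, and the authors' deposited table gives 4.77 and 1.05 for their starred assays. MiR-10a-3p and miR-10b-3p share 19 of 22 bases with different seeds, beside 1 seed for both unstarred strands. Their starred ratios in the authors' deposited table were 0.564 and 7.29, on opposite sides of 1.

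Closer together were miR-200a# and miR-200b#, with the seed AUCUUAC, at 0.853 and 0.947 in the authors' deposited table. MiR-24-1# and miR-24-2#, with the seed UGCCUAC, were listed at 0.983 and 0.724 there. By arm the starred ratios were alike. The 51 ratios of 3p strands had a median of 1.02, with 27 above 1, and the 27 of 5p strands a median of 1.08, with 14 above 1.

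In the miR-17-92 cluster and its paralogs the strands were mostly listed on different sides of 1. As the authors' deposited table has it, 5 of 6 starred ratios were above 1, with a median of 1.14, while all 6 partners were below 1, from 0.490 to 0.957. Beside this, 288 of all 566 miRNA ratios were above 1, and 154 of 297 unstarred A set ratios were below 1. Under the reference of snoRNA, U87 and Y1 controls the starred split was still 5 and 1, but without the outlying U87 spot it was 2 above and 4 below. Below 1 under these references were 62.7% and 66.8% of all miRNA assays. MiR-17# stood at 1.15 beside 0.490 in the authors' deposited table, miR-106b# at 1.25 beside 0.902 and miR-93# at 1.14 beside 0.921. MiR-20a# was at 1.09 beside 0.957 in the authors' deposited table, and miR-19a# was the exception, at 0.628 beside 0.840. All 6 starred assays are in the B set and their partners in the A set.

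The 11 starred ratios of the imprinted Dlk1-Meg3 region, a maternally expressed miRNA cluster on chromosome 12, were listed mostly below 1. As listed in the authors' deposited table, 9 were below 1 and 2 above, with a median of 0.920. Over all miRNA assays 49.1% were below 1. The partners of these 11 assays stood at 9 below and 2 above. These partners come from 9 hairpins, with those of miR-136 and miR-376a each counted for 2 starred assays. The other reference gave 10 below and 1 above, and without the outlying U87 spot all 11 were below, beside 62.7% and 66.8% of all miRNA assays. Apart from miR-376c# they were close to 1, from 0.688 for miR-376b# to 1.13 for miR-411# in the authors' deposited table. None but miR-376c# was at least 1.5-fold from 1, which is 1 of 11 ratios beside 35.3% of all miRNA assays and 42.7% of the B set.

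This locus also holds hairpins that the panel repeats with starred assays for human and mouse. The authors' deposited table gives 0.744 and 0.795 for miR-136#, 1.07-fold apart, and 0.920 and 0.970 for miR-376a#, 1.05-fold apart. Other repeats were less alike. The rat-named miR-125b# had a ratio of 3.25 while the mouse-named one had none and miR-125b-1# stood at 0.885 in the authors' deposited table. The mouse-named miR-29b# was listed at 1.18 and the rat-named miR-29b-1# at 0.149 there, although the older names of both point to the strand miR-29b-1-5p.

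Starred strands of hairpins on a list drawn up for islets were mostly near 1. Enrichment of these hairpins in islets was not checked. Of 19 assays on this list 18 had a ratio, 7 above 1 and 11 below, with a median of 0.955 in the authors' deposited table. As deposited, 49.1% of all miRNA assays were below 1. The snoRNA, U87 and Y1 reference gave 5 above and 13 below, and 4 and 14 without the outlying U87 spot, beside 62.7% and 66.8% of all miRNA assays below 1. Only miR-148a# at 1.63, miR-29b-2# at 1.60 and miR-29b-1# at 0.149 were at least 1.5-fold from 1 in the authors' deposited table, 3 of 18 ratios beside 35.3% of all assays. From miR-7, a brake on beta cell proliferation, the authors' deposited table has miR-7# at 0.963 and miR-7a# at 0.829.

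Further hairpins on the islet list showed small gaps between strands. In the authors' deposited table miR-183#, of a family abundant in neuroendocrine cells, was listed at 1.02 beside 1.45, and miR-204# at 1.06 beside 1.26. MiR-30d#, of a family active in beta cells, stood at 0.926 beside 1.06 in the authors' deposited table, and miR-335# at 0.915 beside 0.710. The miR-200 family, which keeps epithelial identity, had 4 starred ratios between 0.853 and 1.24, with 2 above 1 and 2 below, or 1 and 3 without the outlying U87 spot of the other reference. The widest gap among them in the authors' deposited table was that of miR-141#, at 1.24 beside 0.744.

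**Figure D4:**
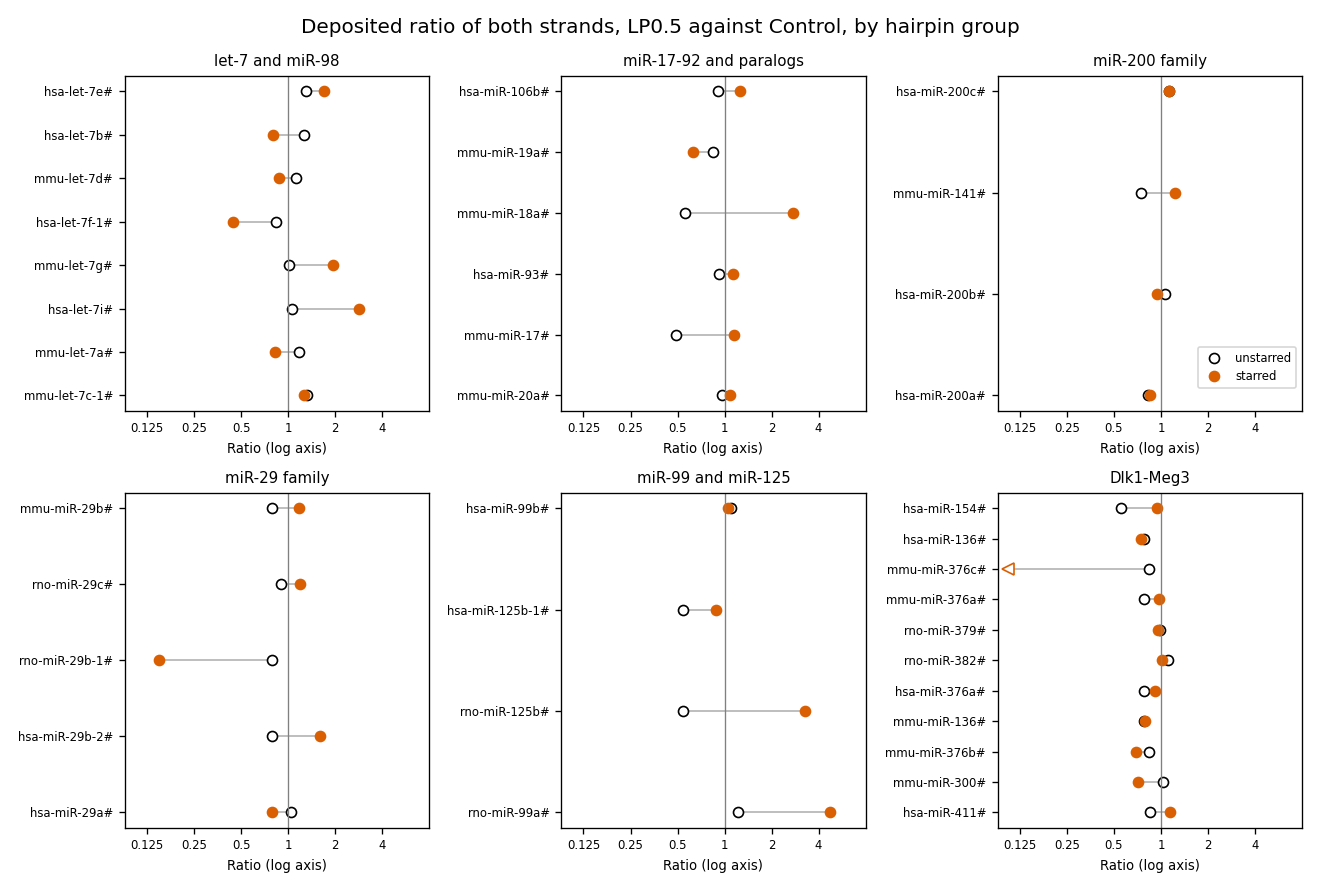
Ratio of the starred (filled) and unstarred (open) strand in the authors' deposited table for hairpins of 6 groups, on a log axis. Each row is 1 starred assay, so a partner shared by several starred assays is drawn for each. A triangle marks a starred ratio beyond the axis (miR-376c#, 0.00663). Partners of let-7 lie between 0.840 and 1.32 while its starred strands run from 0.442 to 2.84. Sides of 1 are as deposited, and the starred miR-17-92 split of 5 above and 1 below becomes 2 and 4 without the outlying U87 spot of the other reference.

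A last group holds starred strands known to be abundant or active in some tissue. Of 10 such # assays 9 had a ratio, with 8 below 1, 1 above and a median of 0.744 in the authors' deposited table. Of all miRNA assays 49.1% were below 1. The 9 ratios come from 8 hairpins, since miR-136# was assayed under a human and a mouse name. Both forms of the other reference put all 9 below 1, beside 62.7% and 66.8% of all miRNA assays. The one listed above 1 in the authors' deposited table was miR-22#, at 1.08 beside 0.915. MiR-126#, active in endothelium, was listed at 0.647 beside 0.975 in the authors' deposited table, both from the A set. MiR-150#, of a lymphocyte hairpin, stood at 0.667 beside 1.78, and miR-9# at 0.873 beside 0.558, both from the authors' deposited table.

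The remaining members of that group were miR-138#, given above, miR-28#, miR-21# and miR-136#. MiR-28# had a ratio of 0.501 in the authors' deposited table beside 1.04 for unstarred miR-28. An assay under the name miR-28-3p, which is the same arm as miR-28#, was listed at 0.746 there. MiR-21#, of a hairpin raised in many injured tissues, stood at 0.967 beside 0.822 in the authors' deposited table. For miR-145#, of smooth muscle, no ratio was listed. The list of known strands also named miR-30a, miR-30e, miR-140, miR-151, miR-155, miR-223 and miR-424, which have no # assay on the panel. The assays miR-30a-3p, miR-30e-3p, miR-140-3p and miR-151-5p are not members by name and were not counted. Their log2 ratios were 0.13, 0.17, 0.14 and 0.43, all above 1 as deposited.

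Other families had a member on each side of 1. Of the 5 starred miR-29 ratios, a family that targets collagen messages, 3 were above 1 and 2 below. Of 4 starred ratios of miR-99 and miR-125, 3 were above 1, with a median of 1.85 in the authors' deposited table, and 2 with either form of the other reference. MiR-15a# was listed at 3.12 beside 1.03, miR-16# at 1.05 beside 0.903 and miR-15b# at 0.108 beside 1.16, all in the authors' deposited table, so 2 of these 3 were above 1, and 1 with either form of the other reference. MiR-30b# stood at 1.85 beside 1.11 there, and miR-27b# at 1.59 and miR-27a# at 1.31 were both above 1. From the X-linked germ line cluster miR-470# at 1.73 and miR-463# at 1.59 were above 1 in the authors' deposited table, opposite to miR-881#.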

How the data were processed

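Ratios are linear fold values that the authors deposited, 1 for each of 846 spots with 190 left without a value; per the file headers they set low-protein against control islets. The submitters' processing notes name limma, while the sources used here do not give its version or use, the normalization or the detection limit. Columns of per-sample values that match no sample label (12) were used in no step, so planned limma tests and detection counts were not run. Depth does not apply to PCR ratios, and their precision is unknown.

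The tables were joined on the spot identifier, 566 of 750 miRNA spots having a ratio, and ratios were taken to log2. A ratio was called far at 1.5-fold from 1. Starred and unstarred assays were paired by hairpin name, without assays under a 3p name for the same arm. The members follow from assay names alone, but they and the lists were chosen with earlier results of these data known. Strands were compared without gaps, at the offset of up to 4 bases with most identical bases. Named assays are the 8 highest and 8 lowest ratios, members of the islet, miR-17-92, let-7 and known-strand lists, pairs with both strands far and the 4 closest and 4 farthest pairs; the remaining families were chosen after their values were seen. Alternatives were the reference, the set, the fold limit, the species name, extreme ratios and the pairing. Counts of assays and pairs and the reference shift were tested on simulated data. Scripts ran in Python 3.11.15 with pandas 2.3.3, numpy 2.4.6 and scipy 1.17.1; figures were drawn with matplotlib 3.10.9.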

Additional observations from a re-analysis of the deposited data

How the results depend on the processing

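With 1 deposited ratio per assay, counts and medians describe the table and have no replicate error. The share of starred assays with a ratio was 100% in the A set alone, which holds 7 of them. Starred ratios at least 1.5-fold above 1 numbered 21, against 11 at a 2-fold limit, 13 with the snoRNA135, snoRNA202, U87 and Y1 reference without its outlying U87 spot (chosen after seeing the data) and 0 in the A set. Those below 1 numbered 16, against 10 at a 2-fold limit and 2 in the A set. Ratios above 1 numbered 50, against 32 without the outlying U87 spot, 2 in the A set and 28 for mouse names alone; those below 1 numbered 45, against 5 in the A set and 21 for mouse names alone, which fewer assays account for. The interquartile range of 0.69 was 0.34 in the A set. The median difference between strands was 0.24 on the log2 scale and lay between 0.14 and 0.31 under its 7 alternatives. Alternatives on threshold cycles, detection and per-sample tests were not run. No paired analysis was possible because the columns used carry no replicate numbers and the results come from no test.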
